A study of Mus musculus with 15 samples.

Results

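The AP-1 family genes described here are 8 of the 22372 protein-coding genes of GENCODE vM1, taken by name: Fos, Fosb, Fosl1 and Fosl2 of the Fos group, Jun, Junb and Jund of the Jun group, and Atf3. They were chosen because the DNA word that AP-1 binds lies at many Pax6 summits in these data. For each gene, all peaks and islands were collected that overlap its body or the 50 kb on either side in the mouse mm9 build. The study asked how binding of Pax6 relates to methylation of histone H3 at lysine 4 (H3K4) in lens cells. Chromatin immunoprecipitation with sequencing (ChIP-seq) had been done in αTN4 cells, a mouse lens epithelial line made with the SV40 T antigen, that stably carry either a control shRNA (control) or an shRNA against Pax6 (knockdown), both brought in by lentivirus, selected with puromycin for 14 days and kept in it. Newborn (P1, 1 day) lens of CD-1 mice gave an H3K4me2 library; it holds lens epithelium and fibres together and carries no shRNA. Control cells had lists for Pax6, RNA polymerase II (Pol2), H3K4me1, H3K4me2 and H3K4me3, and knockdown cells for the 3 methylation marks. Pol2 and Pax6 in the knockdown and the RNA libraries were not analysed here. Each condition is 1 library by the labels and 1 list in the files, although peak names in the control H3K4me2 list mention both replicates, so that list may rest on more reads than the others. A difference between conditions has no replicate check, and no test was made. The antibody field of the labels is crossed between the Pol2 and Pax6 libraries, and the titles were followed.

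AP-1 is a pair of basic leucine zipper (bZIP) proteins, usually a Fos protein with a Jun protein or a pair of Jun proteins, that binds the palindrome TGACTCA or TGAGTCA and, with ATF partners, the cAMP-response word TGACGTCA. Fos, Fosb, Jun, Junb and Atf3 are textbook immediate-early genes, transcribed within minutes of serum, growth factor or stress signals, and the serum response factor drives Fos through a CArG box. In the lens, AP-1 sites take part in crystallin and growth-factor-driven transcription, and Jun can partner the Maf proteins of fibre cells. H3K4me3 marks active starts, H3K4me2 marks starts and enhancers, and H3K4me1 marks mainly enhancers.

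The lists held 17204 Pol2 peaks, 504 Pax6 peaks, 38007 control and 18417 knockdown H3K4me1 islands, 66274 and 65852 H3K4me2 peaks with 56214 in lens, and 14869 and 14301 H3K4me3 peaks. The read depth of the peak lists is unknown. H3K4me1 islands carry reads, 3.29e+06 in control and 1.85e+06 in the knockdown list. Because the median fold differed between lists (for H3K4me3 it was 17.4 in control and 13.1 in knockdown), a peak is given by its fold over background and by its percentile by fold within its own list. Of 15 lens markers measured, 15 had a promoter H3K4me2 peak in lens and 10 in control cells, where Foxe3, Mip, Bfsp1, Bfsp2 and Cdh1 had none. Of 12 markers of blood, vessel, retina and nerve cells, 5 had a promoter H3K4me2 peak in lens and 1 in control cells.

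The AP-1 word (TGACTCA or TGAGTCA, the same site read on opposite strands) lay within 100 bp of 81 of 504 Pax6 summits (16.1%), against 40 of 1008 windows beside those summits (3.97%) and 751 of 17204 Pol2 summits (4.37%). These shares are how the family came to be chosen and are no finding about its genes. Words at Pol2 summits around the AP-1 genes themselves are shown here because they place the family's own site beside its genes. No member had the word from 250 bp before to 50 bp after its start, where 4.32% of all coding genes had it, or in the 500 bp upstream of the start, where 7.33% had it. Of 63 Pol2 peaks in the 8 windows, 6 had it within 100 bp of the summit, and these 6 follow on the forward strand of mm9, with the word in capitals, under the gene in whose window they lie.
Fosl2, chr5:32438210-32438250: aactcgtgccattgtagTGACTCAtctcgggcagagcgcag
Atf3, chr1:193048305-193048345: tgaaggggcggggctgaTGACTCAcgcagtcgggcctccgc
Fosb, chr7:19918411-19918451: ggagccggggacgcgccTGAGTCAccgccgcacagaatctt
Jund, chr8:73206213-73206253: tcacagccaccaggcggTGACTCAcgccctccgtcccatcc
Fosl1, chr19:5433550-5433586: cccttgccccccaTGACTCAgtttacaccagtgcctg
Fosl1, chr19:5480753-5480793: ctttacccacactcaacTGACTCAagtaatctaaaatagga
The Fosl2 word lay beneath the strongest Pol2 peak of that gene's own promoter, 67 bp from a summit that was 0.548 kb upstream of the start. The Atf3, Fosb and Jund words lay beneath Pol2 summits 41.2 kb, 23.1 kb and 15.4 kb upstream of their genes. Of the Fosl1 pair, 1 was 14.1 kb upstream and the other 33.0 kb downstream, in a coding exon of Efemp2. A match of letters describes the sequence and does not show that a protein was bound.

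Close to the starts, other known words were present. The CArG box, the site of serum response factor, occurred in the 500 bp upstream of Fos and Fosb and of 2.70% of all coding genes. TGCGTCA, the AP-1-like word long known beside the Fos CArG box, occurred upstream of Fos, Fosb and Fosl1 and of 2.76% of all coding genes on either strand. TGACATCA, the Jun promoter word bound by Jun and Atf2 proteins, occurred upstream of Jun and of 3.88% of all coding genes on either strand. The cAMP-response word TGACGTCA was upstream of no member and of 2.24% of all coding genes. The stretches below are shown because they carry these words; they run 5′ to 3′ on the gene's own strand, with the words in capitals.
Fos, plus strand, chr12:86814490-86814639, 350 to 201 bp upstream: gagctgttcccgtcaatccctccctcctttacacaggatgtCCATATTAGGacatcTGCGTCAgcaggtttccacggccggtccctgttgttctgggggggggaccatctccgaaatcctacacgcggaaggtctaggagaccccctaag
Fosb, minus strand, chr7:19895595-19895744, 350 to 201 bp upstream: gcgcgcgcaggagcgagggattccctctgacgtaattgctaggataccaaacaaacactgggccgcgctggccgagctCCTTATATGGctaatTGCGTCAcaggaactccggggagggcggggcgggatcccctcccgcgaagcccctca
Jun, minus strand, chr4:94718914-94719113, 200 to 1 bp upstream: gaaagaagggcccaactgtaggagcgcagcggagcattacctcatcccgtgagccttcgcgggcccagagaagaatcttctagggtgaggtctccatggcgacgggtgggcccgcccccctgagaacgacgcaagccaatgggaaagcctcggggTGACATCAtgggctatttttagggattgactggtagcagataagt
The Fos box began 309 bp upstream of the start and its TGCGTCA 294 bp upstream. The Fosb box began 272 bp upstream and its TGCGTCA 257 bp upstream. The order of the pair was thus the same in both genes, the box first and the AP-1-like word at most 10 bp after it, and a search for that arrangement, chosen after these sequences had been seen, found it in the 500 bp upstream of 2 of 22372 coding genes, Fos and Fosb. The Jun word began 45 bp upstream.

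In the 8 windows there was 1 Pax6 peak, near Junb, and 3.47% of all coding genes had at least 1 in a window built the same way. A single peak in 8 windows says nothing of whether the family differs from that share. The peak, chr8:87550795-87551003, had a fold of 6.01, a −log10 q of 5.83 and the 28.1 percentile of the Pax6 list, so it was among the weaker peaks. Its summit lay in a coding exon of 2310036O22Rik, 0.217 kb from that gene's start and 48.3 kb upstream of Junb. It overlapped Pol2, H3K4me3 in both αTN4 libraries and lens H3K4me2, but no H3K4me1 or H3K4me2 region of αTN4, and it held neither TGACTCA nor the looser TGANTCA within 100 bp of its summit. No member promoter, taken throughout as 2 kb on each side of any annotated start, had a Pax6 peak. The nearest Pax6 peak to Atf3 was 71.2 kb from the gene body, to Fosl1 778 kb and to Jun 882 kb. For Fosl2, Fosb, Jund and Fos it lay 3500, 5437, 10099 and 25995 kb away.

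Pol2 was at the promoter of all 8 members in control αTN4 cells, against 47.9% of all coding genes. By the fold of the strongest promoter peak, the order was Junb, Jund, Fos, Jun, Fosl2, Fosb, Atf3 and Fosl1. With 1 library, neighbours in this order cannot be compared against replicate error. The members' median percentile was 91.3, against 70.6 over the 10719 genes with a promoter Pol2 peak, and 7 of 8 members were above that median. Pol2 makes mRNA, and a peak at a start marks polymerase there, engaged or waiting, rather than a transcript level.

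Within the Fos group the promoters were unlike each other. Fos, the founding member and the serum-inducible partner of Jun (ENSMUSG00000021250.7, chr12:86814840-86818223, plus strand), had Pol2 peaks of fold 33.0 at 0.037 kb past the start, 5.04 at 1.46 kb upstream and 4.89 at 0.464 kb upstream. The first was at the 97.2 percentile. Fosb, whose shorter splice form ΔFosB is known from neurons (chr7:19888070-19895394, minus strand), had folds of 17.4 at 0.034 kb, 8.80 at 1.12 kb and 5.62 at 1.62 kb past the start, with the first at the 78.2 percentile. Fosl2, which encodes Fra-2 (chr5:32438845-32460204, plus strand), had folds of 22.0, 6.85 and 4.4, and its strongest peak was 2089 bp wide and at the 88.2 percentile. Fosl1, which encodes Fra-1 and is raised in many transformed cells (chr19:5447703-5455945, plus strand), had a single peak of fold 6.72, at the 34.4 percentile. Fosl1 was the member below the median of all genes with promoter Pol2.

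The Jun group held the strongest peaks. Junb, an immediate-early gene with a single exon (chr8:87500811-87502617, minus strand), had a peak of fold 60.7, at the 99.8 percentile, with a second of 5.04 at 2.25 kb upstream. Jund, the Jun gene that is expressed steadily in most cells (chr8:73221638-73224515, plus strand), had folds of 43.0 and 9.29, the stronger at the 99.0 percentile and 1.21 kb past the first annotated start, close to the gene's second start. An antisense gene, Gm11175, overlaps Jund, and ChIP reads carry no strand. Jun, the founding Jun gene and target of JNK (chr4:94715725-94718913, minus strand), had folds of 27.8, 11.0 and 3.67, with the strongest at the 94.5 percentile. Atf3, the stress-induced bZIP gene that pairs with Jun proteins (chr1:192994175-193007219, minus strand), had 1 promoter peak of fold 16.8, at the 76.5 percentile.

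The spread of Pol2 along the gene also set Junb and Jund apart. The Junb peak was 4319 bp wide, covered 100% of the 1807 bp gene and ran 2042 bp past its end. Pol2 peaks covered 83.6% of the 2878 bp Jund gene and ran 1536 bp past its end. Of 1434 coding genes of 5 kb or less with a promoter Pol2 peak, the median cover was 19.3%, and 110 genes (7.67%) were covered throughout. The other short members, Jun at 23.3% of 3189 bp and Fos at 10.8% of 3384 bp, had Pol2 mainly at the start. Cover in the longer members was 12.3% for Fosb, 6.91% for Fosl2, 5.16% for Fosl1 and 3.07% for Atf3.

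**Figure D1:**
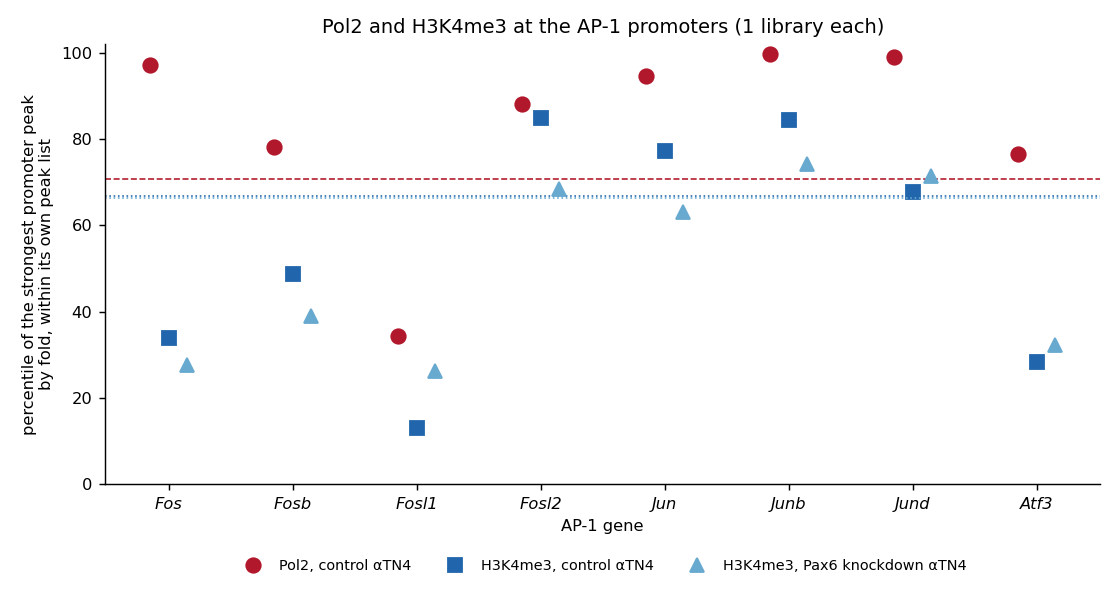
Strongest promoter peak of each AP-1 gene as a percentile by fold within its own list, for Pol2 in control cells and H3K4me3 in control and knockdown cells (1 library each, so no error bar). The dashed red line is the Pol2 median of all genes with a promoter peak (70.6) and the dotted blue lines are the H3K4me3 medians (66.8 and 66.3). The Pol2 point sits above the control H3K4me3 point in all 8 genes, with the widest gap for Fos.

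H3K4me3, the mark of active starts, was at the promoter of all 8 members in control cells, against 49.0% of all coding genes, but it did not rank as high as Pol2. Its strongest promoter peak had a fold of 31.3 at Fosl2, 30.9 at Junb, 27.5 at Jun, 23.8 at Jund, 17.0 at Fosb, 12.1 at Fos, 10.3 at Atf3 and 6.78 at Fosl1. The percentiles within the list were 84.9, 84.3, 77.2, 67.7, 48.7, 34.0, 28.3 and 13.0 in the same order, and their median of 58.2 was below the 66.8 of all genes with a peak. For Jund, the summit of the peak was nearest to the coding start of another gene, in control and in knockdown cells. The Pol2 percentile was above that of H3K4me3 in 8 of 8 members and in 54.2% of the 10356 genes with both. The gap was 63.3 points for Fos, 48.2 for Atf3, 31.3 for Jund, 29.5 for Fosb, 21.4 for Fosl1, 17.3 for Jun, 15.5 for Junb and 3.23 for Fosl2, with a median of 25.4 against 2.25 over all genes with both. Fos and Atf3 thus joined a high Pol2 rank with an H3K4me3 rank in the lower part of its list. Such a gap was not particular to the family. Among other immediate-early genes, the Pol2 and H3K4me3 percentiles were 95.2 and 29.9 at Arc and 88.9 and 43.1 at Egr1. At Nr4a2 the order was the reverse, 75.7 and 92.4, and the list as a whole was not counted. The remaining H3K4me3 promoter peaks of control cells were weaker, with folds of 7.17 upstream of both Fos and Fosl2, 12.1 in Fosb, 10.9 upstream of Jun and 7.55 upstream of Junb.

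H3K4me2 was also at all 8 promoters in both αTN4 libraries, against 58.1% of all coding genes in control and 57.0% in knockdown. The strongest peak had a fold of 24.7 at Fosb, 23.6 at Junb, 19.2 at Fos, 17.9 at Fosl2, 17.1 at Jund, 16.1 at Fosl1, 14.1 at Jun and 13.9 at Atf3 in control cells. The Junb value is that of a 7133 bp peak which reached into the promoter but had its summit 7.45 kb upstream, nearest to Hook2. The median percentile of 86.8 lay near the 87.7 of all genes with a peak. The peaks were wide, 3430 bp in the median against 1673 bp. H3K4me1, which tends to be low at strong starts and high at enhancers, was at 4 of 8 promoters in control cells, namely Fosl1, Junb, Jund and Atf3. That is 50%, against 36.0% of all coding genes and 59.4% of those with a promoter Pol2 peak.

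**Figure D2:**
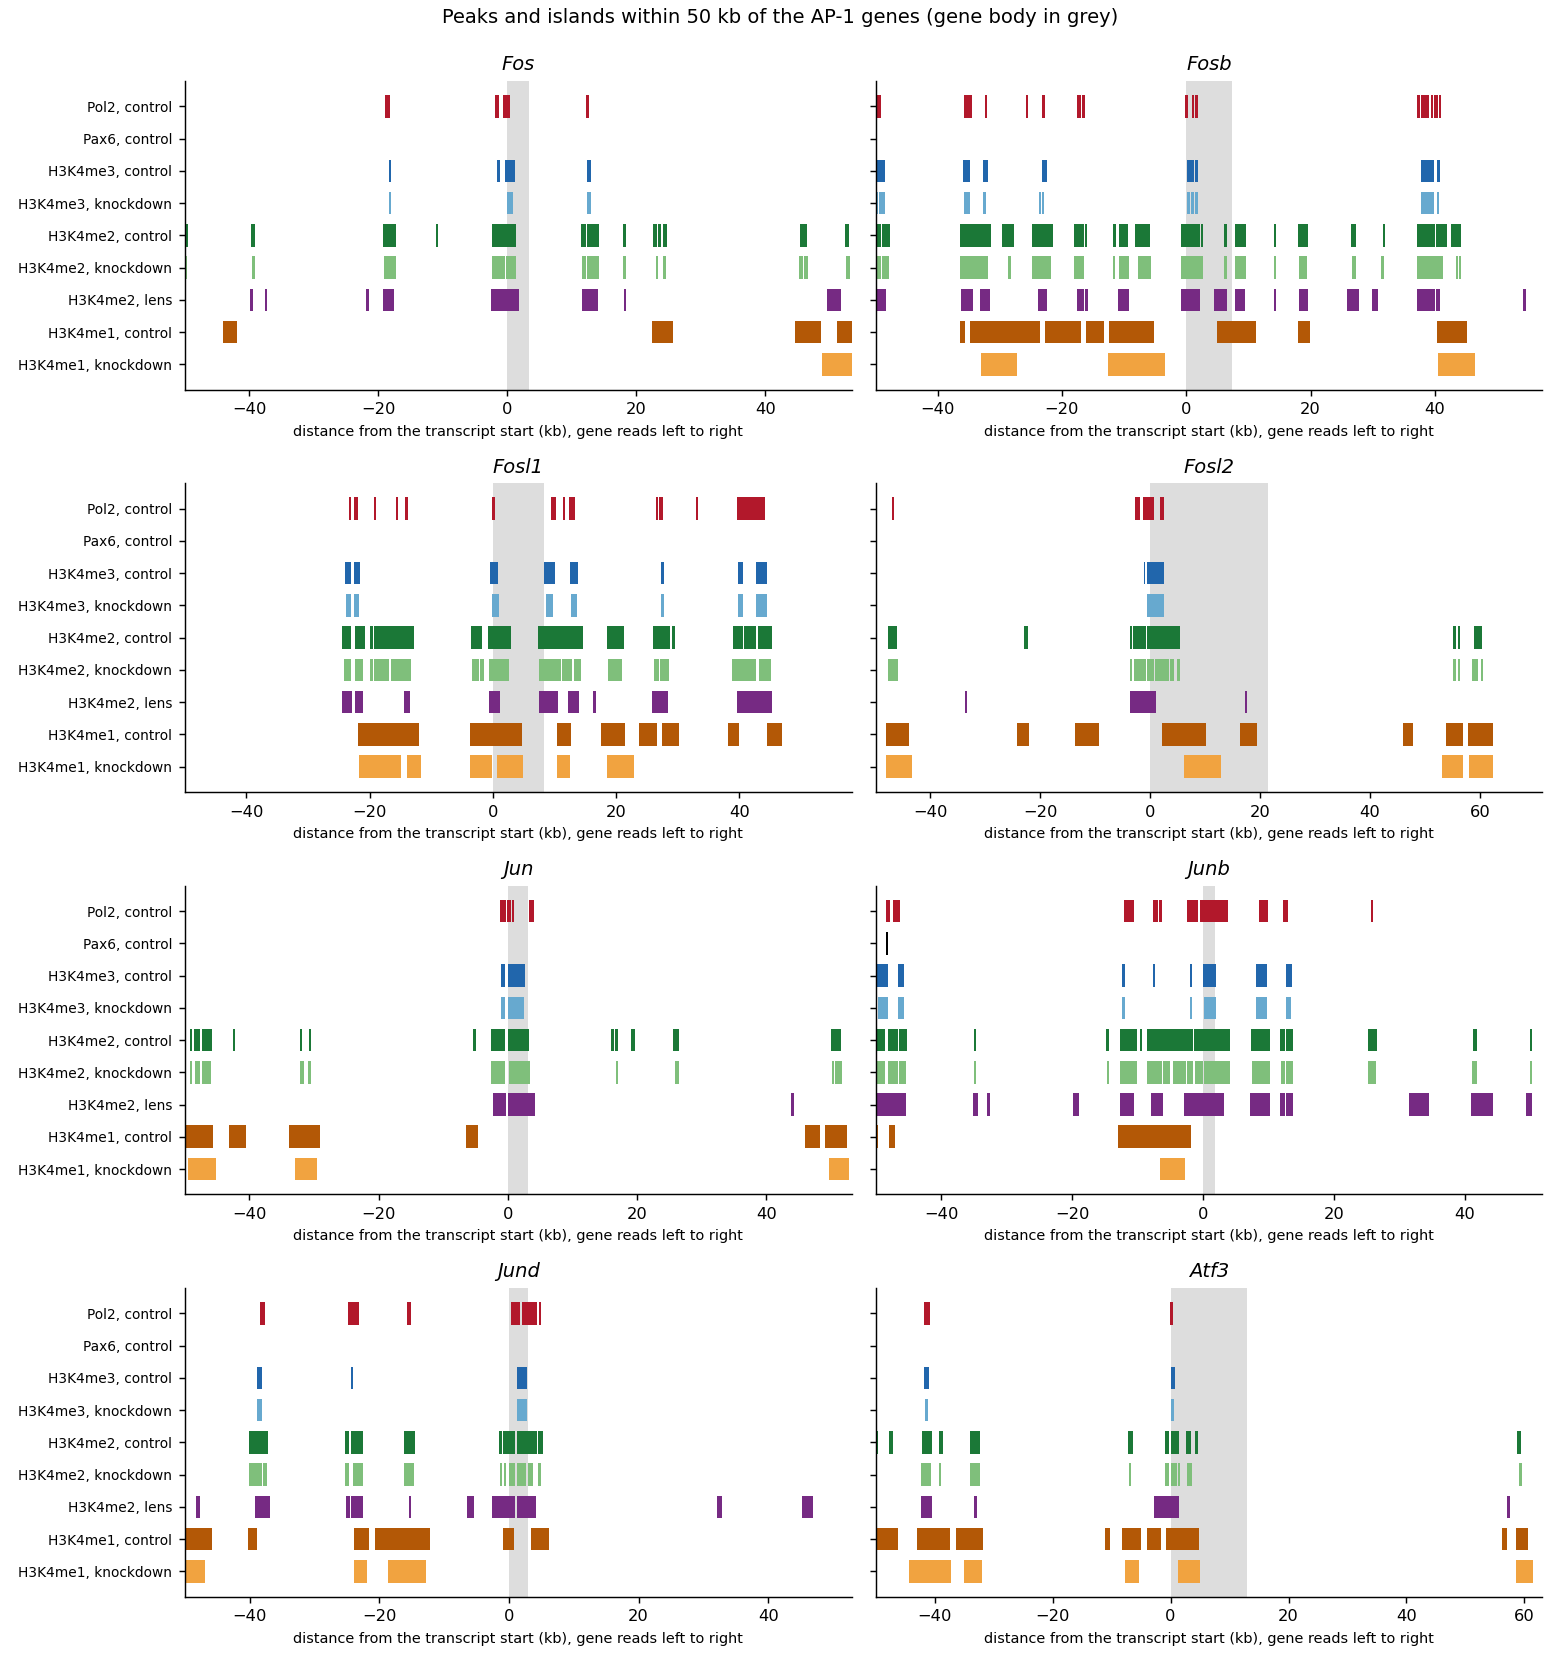
Peaks and islands in the window of each AP-1 gene, drawn by distance from the gene's first start in kb (negative upstream), with 1 row for each list and the gene body as a grey band. Every gene has Pol2, H3K4me2 and H3K4me3 at or just past its start, the knockdown H3K4me1 row is sparser than the control row, and the single Pax6 peak lies at the upstream edge of the Junb window.

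Away from every annotated coding start, 20 Pol2 peaks lay in the 8 windows, with folds from 3.17 to 13.0 and a median of 5.14. Of these, 19 were on a control H3K4me2 peak, against 89.9% of all 4734 such Pol2 peaks. On a control H3K4me3 peak were 8 of 20, against 20.7%, and on a lens H3K4me2 peak 14 of 20, against 51.2%. Some of the sites lay at a distance where enhancers of immediate-early genes are usually found. At Fos, a site 18.3 kb upstream had a Pol2 fold of 6.24 and an H3K4me3 fold of 8.08 in control and 7.38 in knockdown cells, and its lens H3K4me2 peak had a fold of 31.9, at the 98.7 percentile. A site 12.4 kb past the Fos start had a Pol2 fold of 7.09, an H3K4me3 fold of 13.6 and then 8.37, and an H3K4me2 fold of 20.5 and then 22.9. That H3K4me2 peak was the strongest of the Fos window in both αTN4 libraries, ahead of the promoter.

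Fosb had a site 17.2 kb upstream with a Pol2 fold of 12.7, whose H3K4me2 peak was the strongest of that window in knockdown cells, with a fold of 35.7 at the 99.8 percentile. In control cells the H3K4me2 peak of this site had a fold of 15.9, at the 82.7 percentile. Its −log10 q was 91.7, and a control peak of the same window with 95.5 had a fold of 22.8, at the 96.6 percentile. The control rank of this site thus depends on the measure, and H3K4me2 was not ranked by −log10 q. The Fosb site 23.1 kb upstream, which holds TGAGTCA, had a Pol2 fold of 9.54. Atf3 had a site 41.2 kb upstream, which holds TGACTCA, with a Pol2 fold of 8.80, an H3K4me3 fold of 27.9 in control and 14.0 in knockdown cells, and an H3K4me2 fold of 26.6 and 27.6. Its lens H3K4me2 fold was 23.9. This site thus carried more H3K4me3 and H3K4me2 by fold than the Atf3 promoter did in control cells, and no coding start is annotated there. Jund had the strongest distant Pol2 peak, of fold 13.0 at 15.4 kb upstream, with TGACTCA and H3K4me2 but no H3K4me3. Which gene any of these sites serves was not measured.

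After knockdown of Pax6, H3K4me3 was still at all 8 promoters, against 47.7% of all coding genes. The fold of the strongest peak was 18.7 at Junb, 18.0 at Jund, 17.2 at Fosl2, 16.0 at Jun, 10.8 at Fosb, 9.35 at Atf3, 8.37 at Fos and 8.12 at Fosl1. Since folds were lower across the whole list, the comparison between libraries rests on percentiles, and a change was counted past 10 points. By that count the rank was lower at Fosl2 (−16.5 points), Jun (−14.1) and Junb (−10.1), higher at Fosl1 (13.3), and changed less at Fosb (−9.64), Fos (−6.36), Atf3 (4.05) and Jund (3.70). Thus 3 of 8 were lower, against 21.4% of the 10619 genes with a peak in both libraries, and 1 of 8 was higher, against 12.4%. The median change was −8.00 points in the members and −1.68 over all genes. Ranked by −log10 q in place of fold, Fosl1 was 4.35 points higher, which is no longer past 10, and Atf3 turned to −2.23, while Fosl2, Jun and Junb stayed lower past 10. With 8 genes and 1 library of each kind, these counts describe the libraries.

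Of the 38 control H3K4me3 peaks in the windows, 33 were found in the knockdown (86.8%, 95% Wilson interval 72.7 to 94.2), so that 5 were not, against 10.1% not found over the whole list. The 5 had folds of 5.66 to 7.55, and the kept peaks had a median fold of 17.6. Those not found were at Fos 1.40 kb upstream and Fosl2 1.11 kb upstream (fold 7.17 each), at Fosb 22.7 kb upstream and Junb 7.5 kb upstream (5.66 each), and in an intron of Lsm4 in the Jund window (7.55). Of 36 knockdown peaks, 1 was not in control, against 2.65% of the list, and it lay near Fosb at chr7:19918904-19919136 with a fold of 4.92. All intervals here cover counting error only.

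H3K4me1 was the mark whose list shrank most in the knockdown, and the share found again in the AP-1 windows was near that of the whole list. The windows held 52 islands and 207.6 kb in control and 26 islands and 115.4 kb in knockdown cells. Of the 52, 24 were found again (46.2%, Wilson 33.3 to 59.5) and 28 were not, against 53.8% not found over all 38007 islands. Of the 26 knockdown islands, 0 were absent from control (Wilson 0 to 12.9%), against 6.93% of the list. At promoters, 2 of 8 members kept H3K4me1, Fosl1 and Atf3, against 16.7% of all coding genes and 27.1% of those with promoter Pol2. The Jund promoter island of 37 reads was not found, and the Junb island, 272 reads over 11200 bp in control, had in the knockdown an island of 92 reads over 3800 bp that began outside the promoter. The density of reads was 24.3 per kb in the control island and 24.2 per kb in the knockdown island, so the called stretch was shorter and the density within it was much the same.

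In 24 kept islands, read density was compared after subtracting the shift of all 17559 kept islands, −0.32 on the log2 scale. The members' median was then −0.09, with a range of −0.77 to 0.40. Past 0.5 on that scale, 2 of 24 were lower, against 7.01% of all kept islands, and 0 were higher, against 7.69%. Without subtracting the shift 9 of 24 were lower, and by fold over control reads 3 were lower and 2 higher, with a median of 0.04. The first was in the Fosl1 window at chr19:5465201-5469200, with 123 reads in control and 64 in the knockdown island that overlaps it, a change of −0.77. The second was in the Fosl2 window at chr5:32492601-32495800, with 85 and 53 reads and a change of −0.61. Islands that were not found were small, with a median of 45.5 reads (25 to 125), against 111.5 reads (47 to 367) in those found. Over all islands the medians were 47 and 92 reads.

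By gene, the Fos window went from 4 to 1 island and from 11.8 to 4.62 kb covered. Its strongest control islands, of 74 reads 24.1 kb past the start and 71 reads 46.6 kb past it, were not found, and the third, of 59 reads 52.8 kb past it, was the 1 left. The fourth, of 48 reads 42.9 kb upstream, was not found either. Fosb went from 8 to 3 islands. Its strongest islands, of 263, 187 and 132 reads, were found again, while those of 125 reads 19.9 kb upstream and 78 reads 8.09 kb past the start were not. Fosl1 went from 8 to 6 islands, led by 367 reads 16.9 kb upstream. Of its 8 control islands 4 were not found, the strongest of 67 and 66 reads, and those of 367 and 171 reads each overlapped 2 knockdown islands. Fosl2 went from 8 to 4, led by an island of 134 reads in the gene itself, 6.16 kb past the start, which had a knockdown island of 97 reads. Among the Jun genes, Jun went from 6 to 3 islands, Junb from 3 to 1 and Jund from 6 to 3. The strongest not found were of 41 and 37 reads at Jun, 45 and 31 at Junb and 59 and 41 at Jund. Atf3 went from 9 to 5, led by the island of 132 reads 40.2 kb upstream, over the TGACTCA site, which had a knockdown island of 111 reads.

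**Figure D3:**
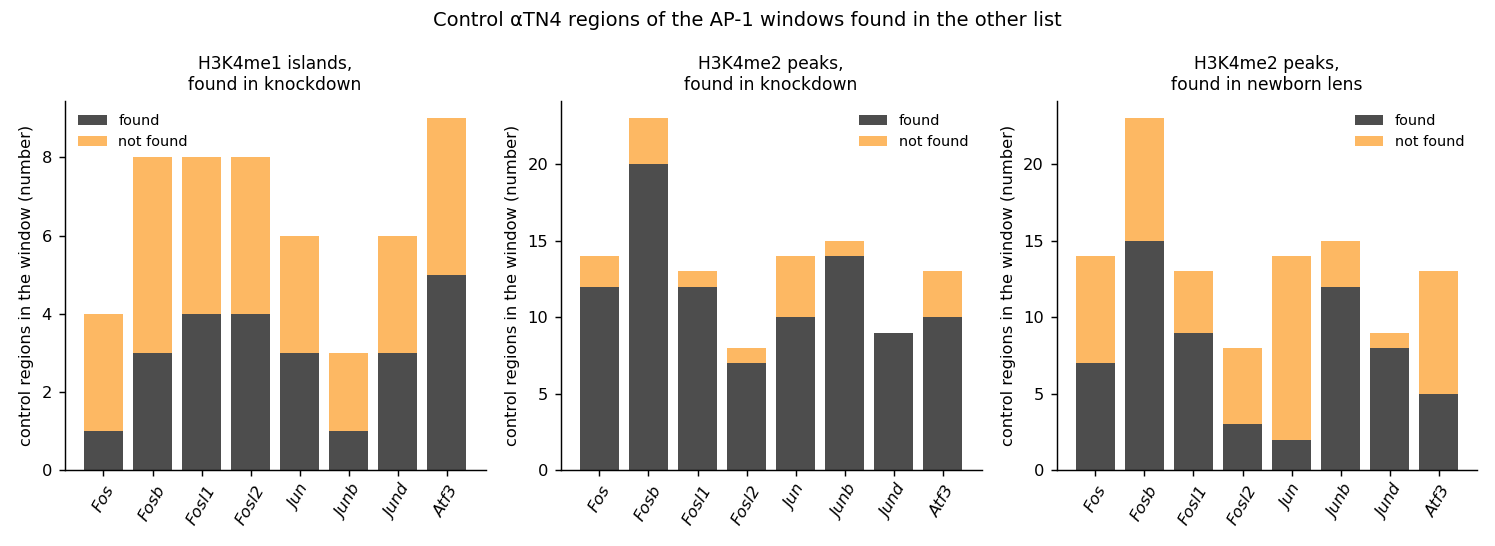
Number of control regions in the window of each AP-1 gene, split into those found (dark) and not found (light) in the other list, for H3K4me1 islands and H3K4me2 peaks in the knockdown and for H3K4me2 peaks in newborn lens. H3K4me1 bars are divided most evenly (24 of 52 found), H3K4me2 bars are mostly dark in the knockdown (94 of 109), and in lens Jun has 2 of 14 peaks found while Jund has 8 of 9.

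H3K4me2, the mark shared by starts and enhancers, was largely kept. Of 109 control peaks, 94 were found in the knockdown (86.2%, Wilson 78.5 to 91.5) and 15 were not, against 17.5% not found over all 66274 peaks. All 17 promoter peaks were found. Over the whole list 54644 of 66274 control peaks were found, and away from all coding starts 34856 of 45380. Most of the remainder, the peaks at coding starts, were thus found too, so 17 of 17 is not particular to the family. Among all coding genes, 58.1% had a promoter H3K4me2 peak in control and 57.0% in knockdown, so that share hardly changed either. Away from all coding starts 47 of 61 were found (77.0%, Wilson 65.1 to 85.8), against 76.8% of all such peaks, and for H3K4me1 16 of 32 (50%, Wilson 33.6 to 66.4), against 47.4%. Of 111 knockdown peaks, 0 were absent from control (Wilson 0 to 3.35%), against 7.34% of the list. The 15 not found were weak, with folds of 2.94 to 5.75 and a median of 4.26, where kept peaks had a median of 13.5. Jun had 4 of the 15, led by folds of 5.75 at 42.4 kb and 5.07 at 5.16 kb upstream. Fosb and Atf3 had 3 each, led by 4.84 at 16.1 kb upstream of Fosb and 4.26 at 47.5 kb upstream of Atf3, and Fos had 2, of 5.29 and 4.26. Fosl1, Fosl2 and Junb had 1 each, of 2.94, 4.03 and 3.92, and Jund had none in its 9 peaks. The largest rank changes of a promoter H3K4me2 peak were at Atf3, 22.4 points higher in knockdown, and at Junb and Fos, −12.0 and −10.6 points. At Junb the knockdown peak with the corresponding summit, of fold 24.3 at 7.48 kb upstream, was called apart from the promoter, so that value compares different peaks.

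The strongest H3K4me2 peaks of a window were not always those of the AP-1 gene. The Fos window has no other coding gene, and its control peaks were led by folds of 20.5 at 13.5 kb past the start, 19.2 at the promoter and 15.3 at 11.9 kb past the start. In Fosb's window the control folds of 25.4 at 32.4 kb upstream and 22.8 at 40.5 kb past the start lay nearest to Ercc1 and Vasp, on either side of the promoter peak of 24.7. Fosl1's window was led by 28.6 nearest to Mus81 and 23.9 nearest to Cfl1, and these were 38.2 and 26.0 in knockdown cells. Fosl2 and Jun led their own windows in control and in knockdown cells. At Fosl2 the promoter peak had 17.9 in control and 23.6 in knockdown, and the peak 47.1 kb upstream 14.8 and 18.1. At Jun the promoter peaks had 14.1 and 12.7 in control and 14.9 and 14.2 in knockdown. Junb's window was led in control by 24.7 nearest to Rnaseh2a, Jund's by 24.4 nearest to Lsm4, and Atf3's by the site 41.2 kb upstream. In knockdown cells the lead in Atf3's window passed to the promoter, with a fold of 31.2. Peaks covered less in knockdown than in control in all 8 windows, from 7.83 against 10.3 kb at Atf3 to 30.5 against 34.4 kb at Fosl1, and over the whole list 63.6 against 74.3 Mb.

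In newborn lens, all 8 promoters had H3K4me2, against 66.7% of all coding genes, and the peaks stood high in the list. The strongest promoter peak had a fold of 37.7 at Fosb, 33.4 at Fos, 30.0 at Junb, 28.7 at Atf3, 28.1 at Jun, 27.6 at Fosl2, 26.3 at Fosl1 and 23.2 at Jund. The percentiles ran from 85.6 at Jund to 99.9 at Fosb with a median of 95.3, against 86.4 over all genes with a peak. The percentile was higher in lens than in control αTN4 cells in 6 of 8 members, against 49.6% of the 12309 genes with both. The difference was 18.9 points at Atf3, 17.1 at Jun, 8.71 at Fos, 8.59 at Fosl1, 6.36 at Fosl2 and 1.58 at Fosb, and at Junb and Jund it was −0.28 and −0.20. For Junb the control value is the wide peak with its summit nearest to Hook2, and for Jund the lens summit lay 3.23 kb past the first start. The members' median was 7.48 points, against −0.07. Lens tissue and αTN4 cells differ in cell types, in culture and in the shRNA, and these cannot be told apart here. In a whole lens, a greater share of a cell type and more of the mark per cell cannot be told apart either. Of the 12 markers of other cells, 5 had a promoter H3K4me2 peak in lens and 1 in control cells, and their part in the AP-1 values was not tested.

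**Figure D4:**
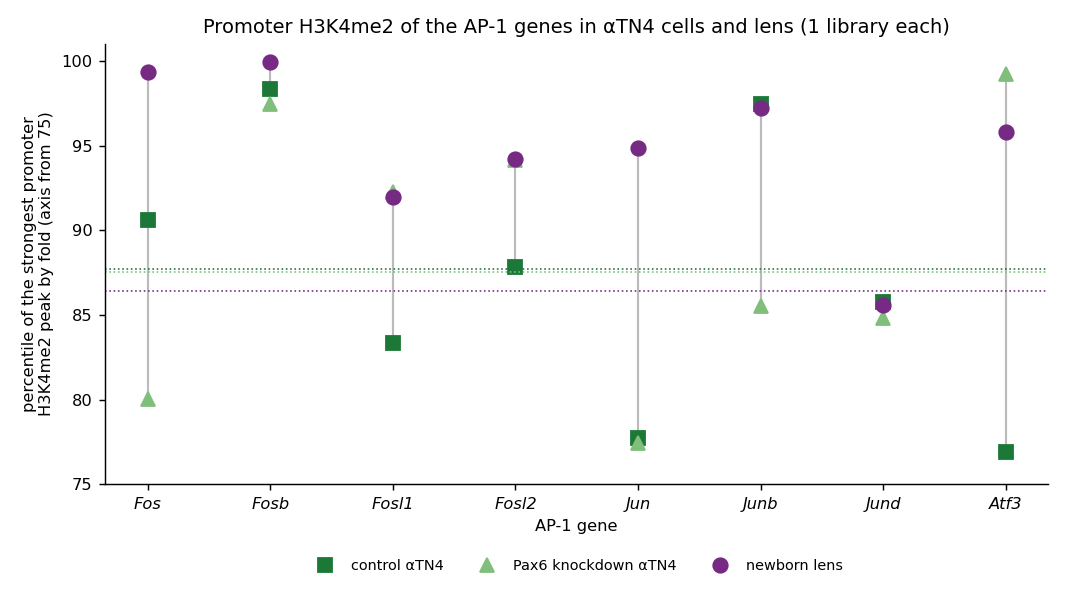
Percentile by fold of the strongest promoter H3K4me2 peak of each AP-1 gene in control αTN4, knockdown αTN4 and newborn lens (1 library each, with an axis that does not start at 0; the grey line joins the 3 values and dotted lines are the medians of all genes with a peak). Lens points are above control points for 6 genes, with the widest steps at Atf3 and Jun, and below them by less than 1 point at Junb and Jund.

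Of the 109 control H3K4me2 peaks in the windows, 61 were found in lens (56.0%, Wilson 46.6 to 64.9), against 41.3% of the whole list, and of 70 lens peaks 52 were found in control (74.3%, Wilson 63.0 to 83.1), against 45.4%. The windows hold other genes' promoters, from none beside Fos and Jun to 10 beside Fosl1. Away from all coding starts, 18 of 61 control peaks were found in lens (29.5%, Wilson 19.6 to 41.9), against 19.4%, and 17 of 33 lens peaks in control (51.5%, Wilson 35.2 to 67.5), against 27.4%. Shared peaks were the stronger ones, with a median control fold of 15.8 against 5.14 in those not found in lens, as in the whole list (14.1 against 5.10).

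The genes differed widely in this share, and their windows hold different numbers of other coding genes (4 at Jund, 8 at Junb and 0 at Jun). Jund had 8 of 9 control peaks in lens and Junb 12 of 15, while Jun had 2 of 14, both at its promoter. Fosb had 15 of 23, Fosl1 9 of 13, Fos 7 of 14, Atf3 5 of 13 and Fosl2 3 of 8. The strongest control peaks without a lens peak had folds of 16.6 in the Junb window, in an exon of Rtbdn, 14.8 at 47.1 kb upstream of Fosl2, 12.1 at 28.5 kb upstream of Fosb and 12.1 at 20.7 kb past the Fosl1 start. At Jun the strongest was 9.77 at 50.9 kb past the start. No control peak in the flanks of Jun had a lens peak. Over all control peaks away from coding starts the share with one was also low, 19.4%. Lens peaks without a control peak numbered 18, led by folds of 14.5 at 32.9 kb past the Junb start, 14.0 at 5.67 kb upstream of Jund, 12.6 at 32.5 kb past the Jund start and 11.1 at 57.4 kb past the Atf3 start. The strongest of the other windows were 9.11 at Fos, 8.10 at Fosb, 7.11 at Fosl1, 5.27 at Jun and 5.0 at Fosl2.

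The genes that act with or on AP-1 give the setting for these values. Of all coding genes, 47.9% had promoter Pol2, 49.0% H3K4me3 and 66.7% H3K4me2 in lens. Of 32 bZIP genes that can partner AP-1 proteins, such as the Atf, Maf, Cebp and Nfe2l genes, 25 had promoter Pol2, 23 H3K4me3 and 30 H3K4me2 in lens. The strongest Pol2 folds were 56.0 at Ddit3 (CHOP), 39.4 at Nfe2l2 (NRF2) and 38.2 at Nfe2l1. Their H3K4me3 rank in knockdown was lower past 10 points in 5 of 23 and higher in 4, against 21.4% and 12.4% of all genes. A Pax6 peak lay in the window of 1 of 32 (3.47% of all coding genes), Batf3, the Jun partner whose gene neighbours Atf3, and this peak was 97.1 kb from Atf3. In lens the H3K4me2 percentile was higher than in control in 10 of 28, against 49.6% of all genes with both.

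Of 30 kinases of the ERK, JNK and p38 pathways, which phosphorylate Jun, Fos and the regulators of Fos, 24 had promoter Pol2 and 28 H3K4me3, with Pol2 folds of 39.9 at Map2k2 and 32.0 at Mapk14 (p38α). The H3K4me3 rank was lower in 5 of 27 and higher in 8, against 21.4% and 12.4% of all genes with a peak in both. The lens H3K4me2 percentile was higher in 16 of 29, against 49.6%. A Pax6 peak lay in the window of 1 of 30, Mapk7 (ERK5), against 3.47% of all coding genes. Of 33 other immediate-early genes and regulators of serum response, 31 had promoter Pol2, with a median percentile of 92.2 that was close to the AP-1 genes' 91.3. Their strongest folds were 63.3 at Ier2, 57.0 at Btg1 and 51.6 at Cyr61. The H3K4me3 rank was lower in 8 of 31 and higher in 4, against 21.4% and 12.4% of all genes with a peak in both. Cyr61 went from the 77.2 to the 48.9 percentile. A Pax6 peak lay in the window of 0 of 33, against 3.47% of all coding genes. Their lens H3K4me2 percentile was higher than in control in 13 of 31, against 49.6% of all genes with both. It was higher in 6 of 8 AP-1 genes. The difference between these lists was not tested.

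Of 32 genes known as AP-1 targets, 20 had promoter Pol2 and 17 H3K4me3 in control cells. Among them, the Pol2 fold was 58.7 at Vegfa and 38.5 at Vim. The H3K4me3 rank was lower in 4 of 17 and higher in 2, against 21.4% and 12.4% of all genes with a peak in both. Pax6 peaks lay in the windows of Spp1 (osteopontin), which had 2, and Bcl2l11 (BIM), which had 1, so 2 of 32 targets had one, against 3.47% of all coding genes.

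Of the 81 Pax6 peaks with the AP-1 word, 0 lay in a member window. Only 3.47% of all coding genes had any Pax6 peak in a window, so this says nothing particular about the family. A peak of fold 18.7 nearest to Tgif1, which overlapped lens H3K4me2, is not shown. The strongest Pax6 peak with the word, of fold 20.0, and those of fold 16.6 and 13.5 are shown as examples. None of these shown overlapped lens H3K4me2, and the Tes peak holds a further word 90 bp from its summit. They are on the forward strand with the word in capitals and named by the gene with the nearest start.
Ranbp6 nearest, chr19:29897625-29897675: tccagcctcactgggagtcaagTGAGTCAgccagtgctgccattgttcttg
Tes nearest, chr6:17069704-17069754: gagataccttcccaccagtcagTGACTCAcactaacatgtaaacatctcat
Clvs2 nearest, chr10:33278108-33278158: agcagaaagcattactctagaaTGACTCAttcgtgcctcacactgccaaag
Across all 504 peaks, the 87 words were 48 bp from their summit in the median. Away from promoters, 80 Pax6 peaks had the word and 371 did not, with median folds of 7.06 and 6.84. Of the 80, 92.5% (Wilson 84.6 to 96.5) lay on a control H3K4me1 island, against 76.3% (71.7 to 80.3) of the 371. On a knockdown H3K4me1 island lay 80.0% (70.0 to 87.3) against 56.1% (51.0 to 61.0). For H3K4me2 the shares were 86.2% (77.0 to 92.1) against 72.0% (67.2 to 76.3) in control and 77.5% (67.2 to 85.3) against 61.7% (56.7 to 66.5) in knockdown cells. For lens H3K4me2 the order was turned, with 22.5% (14.7 to 32.8) against 34.5% (29.8 to 39.5). On a Pol2 peak lay 17.5% against 13.5%, and on a control H3K4me3 peak 1.25% against 1.08%. These are shares of peaks within 1 Pax6 library, and how they vary between cultures is not known. The word was read from sequence alone, and no ChIP of an AP-1 protein was analysed here.

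**Figure D5:**
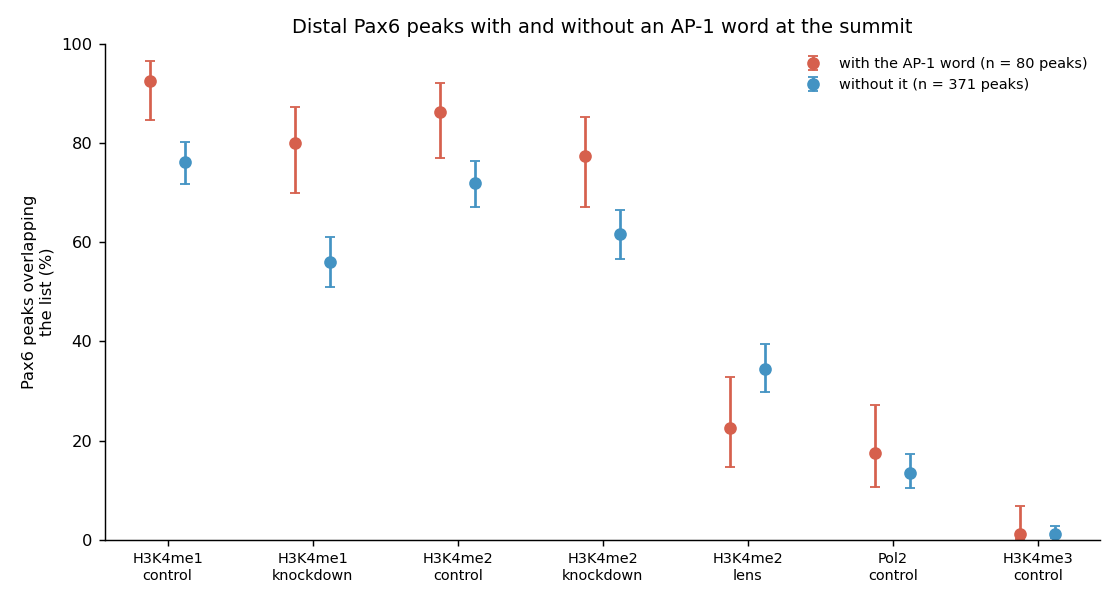
Share of Pax6 peaks away from promoters that overlap each mark, in percent with 95% Wilson intervals, for 80 peaks with the AP-1 word within 100 bp of the summit and 371 without. The share is greater with the word for H3K4me1 and H3K4me2 of both αTN4 libraries and smaller for lens H3K4me2 (22.5% against 34.5%).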

How the data were processed

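Chromatin of control and knockdown αTN4 cells and of newborn lens had been profiled by ChIP-seq, with 1 library for each condition and mark. Per the study's methods, the authors aligned reads with Bowtie through WASP to mm9 and left out blacklisted regions. With MACS2 they called peaks of Pol2, Pax6, H3K4me2 and H3K4me3, deposited with a fold enrichment (a ratio over background) and −log10 p and q values. With SICER they called H3K4me1 islands, deposited with read counts in ChIP and control, a fold, and a p-value with its false discovery rate. Whether libraries were pooled before calling is not stated, although names in the control H3K4me2 list refer to both replicates. The RNA libraries, the input libraries and pooled read files were not analysed here.

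From these, coding genes of GENCODE vM1 (22372) were given a promoter of 2 kb on each side of every annotated start and a window of 50 kb on each side of the body, and regions were matched by an overlap of at least 1 bp with Python 3.11.15, NumPy 2.4.6, pandas 2.3.3 and SciPy 1.17.1. Peak percentiles rank fold within a list. Sequences came from NCBIM37, the assembly of mm9. The matching was tested on simulated regions. Figures used matplotlib 3.10.9. With 1 library per condition there is no test: member counts are set beside the share over all features, a rank change is counted past 10 points and a density change past 0.5 on the log2 scale, and shares have 95% Wilson intervals. Depth of the MACS2 libraries is unknown, and how depth moves the number of weak peaks was not tested. All 8 members enter every count. Every Pol2 and H3K4me3 promoter peak and every Pax6 peak of a window was to be named, with the 3 strongest H3K4me1 and H3K4me2 regions by window, the 2 strongest lost and gained, and from each gene list the 3 genes strongest in promoter Pol2 and those with a Pax6 peak. Where many peaks qualified, counts or the leading values are given. Some genes that this rule names are not reported here. The members and the gene lists were chosen with earlier results of these data known. Other windows, promoter widths, thresholds and rank measures were tried.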

Additional observations from a re-analysis of the deposited data

How the results depend on the processing

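The counts at promoters and in windows, the shares found in another list, the H3K4me3 rank changes and the H3K4me1 densities were recomputed with windows of 10 or 100 kb, promoters of 1 kb, stricter thresholds, a larger overlap, nearest-start assignment or another rank measure, as each applied, and the other values were not. Of 65 comparisons of a main value, 56 stayed within the set limits and 9 moved. No value past its threshold changed sign. Members with knockdown H3K4me1 at the promoter fell from 2 to 1 with 1 kb on each side. Pax6 peaks numbered 0 within 10 kb, 3 within 100 kb and 0 when assigned to the nearest start. Control H3K4me2 peaks found in lens came to 72.2% within 10 kb. Ranking H3K4me3 by −log10 q left 0 members higher past 10 points, since Fosl1 went from 13.3 to 4.35, and turned Atf3 from 4.05 to −2.23. Without centring, 9 of 24 H3K4me1 islands were lower past 0.5 and their median change was −0.40, and by fold over control reads 3 were lower, 2 were higher and the median turned from −0.09 to 0.04. In the 16 recomputed rank changes of single genes no value moved by more than 10 points. No paired analysis was possible because each condition is 1 library and no result comes from a test. Unknown depth limits what a peak missing from a list can show.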

Other observations

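Atf3 and Batf3, neighbouring bZIP genes on chromosome 1, had Pax6 peaks on either side beyond the 50 kb window of Atf3. The peak chr1:192896953-192897086, of fold 6.06, lay 97.1 kb from the Atf3 body and nearest to Nsl1. The peak chr1:193078389-193078525, of fold 6.09, lay 71.2 kb from it and nearest to Nenf.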
